A study of Homo sapiens with 6 samples.

Results

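The interferon pathway of U87 cells was read through 51 genes: 34 effectors induced by type I interferon, 5 guanylate-binding protein (GBP) and proteasome genes induced mainly by interferon gamma, 5 interferon regulatory factors (IRFs), 3 genes of the JAK-STAT relay and 4 receptor subunits. The genes were listed by name, with earlier results of these libraries known, and all 51 were found by symbol among the 54628 genes of the count files. The 6 RNA-seq libraries were made from U87, a human glioblastoma cell line, after a co-culture was passed through a flow sorter, and the series title names mitochondria passing from astrocytes as the subject. The titles give 3 libraries of cycling cells that had received mitochondria (received) and 3 of cycling cells that had not (not received). Both groups were co-cultured and sorted, so neither is a culture of U87 cells alone, and the labels name no interferon treatment, drug or gene change in either. The labels do not say how receipt was detected, nor whether the replicates are separate co-cultures, so a p-value here reflects variation among these libraries, which may be technical.

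Interferons are secreted proteins that cells release when they sense foreign or misplaced nucleic acid, and mitochondrial DNA or RNA in the cytosol is among the known triggers. Type I interferons bind the receptor IFNAR1-IFNAR2 and interferon gamma binds IFNGR1-IFNGR2. JAK kinases on these receptors phosphorylate STAT proteins. STAT2 joins IRF9 and a further STAT in the complex ISGF3, which binds the interferon-stimulated response element (ISRE), whereas STAT dimers formed under interferon gamma bind the gamma-activated site (GAS). Genes behind these elements encode proteins that degrade viral RNA, block viral entry or translation, and widen antigen presentation.

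The regulatory letters by which these genes are known are shown for 6 of them, 5 effectors and the factor IRF1, as examples of the elements whose matches are counted further below; no call or fold change rests on them. The sequences are RefSeq's of assembly GRCh38.p14, each a stretch of 100 bases inside the 250 bases upstream of the annotated start, written 5′ to 3′ on the gene's strand. Capitals in the first 5 mark matches on either strand to the ISRE core, which is GAAA, 2 bases of any kind and GAAA again, and capitals in IRF1 mark the GAS core TTCNNNGAA.
ISG15 (chr1:1013354-1013453, plus strand): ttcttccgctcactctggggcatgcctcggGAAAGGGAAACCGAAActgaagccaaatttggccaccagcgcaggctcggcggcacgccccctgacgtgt
IFIT1 (chr10:89392477-89392576, plus strand): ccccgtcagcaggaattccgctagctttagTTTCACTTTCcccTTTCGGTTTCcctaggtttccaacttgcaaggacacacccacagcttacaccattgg
IFITM3 (chr11:320861-320960, minus strand): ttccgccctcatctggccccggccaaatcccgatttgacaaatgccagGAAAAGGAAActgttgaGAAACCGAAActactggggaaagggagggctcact
OAS3 (chr12:112938301-112938400, plus strand): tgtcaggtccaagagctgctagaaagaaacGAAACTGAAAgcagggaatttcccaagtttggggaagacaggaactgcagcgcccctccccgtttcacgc
SAMD9 (chr7:93118046-93118145, minus strand): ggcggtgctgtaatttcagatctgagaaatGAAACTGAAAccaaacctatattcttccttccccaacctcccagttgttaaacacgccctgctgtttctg
IRF1 (chr5:132490828-132490927, minus strand): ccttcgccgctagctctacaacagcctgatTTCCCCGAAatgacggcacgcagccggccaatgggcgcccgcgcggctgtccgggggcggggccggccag
The SAMD9 and OAS3 stretches carry the same match, GAAACTGAAA, which begins 136 bases before the annotated start of SAMD9 and 143 before that of OAS3 (a second match of OAS3, 12 bases before its start, lies outside the stretch shown). The matches of ISG15 begin 113 and 107 bases before the start and overlap. Those of IFITM3 begin 52 and 35 bases before it, and the GAS match of IRF1 begins 124 bases before it.

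Library totals were 17879552 to 21314558 counts in received and 18549585 to 46392491 counts in not received, so 3 counts of a gene correspond to 0.0661 CPM (counts scaled to a common library size) where depth was greatest and to 0.167 CPM where it was least. These floors cover counting error only. Not-received replicate 2, the deepest library, stood apart: chi-square per gene between it and the other libraries of its group was 18.5 and 16.9, against 5.40 between those others and 3.23 to 3.68 between received libraries. The libraries carried markers of the line (9 of 10 U87 genes tested) and few of other cells. Of 10 astrocyte markers AQP4, ALDH1L1 and GJB6 had 0 counts and GFAP had 0.215 to 0.445 CPM in received and 0.286 to 0.598 CPM in not received. The summed astrocyte list was 155 to 173 CPM in received and 194 to 208 CPM in not received, most of it from clusterin (CLU, called lower) and with SOX9 called higher and NDRG2 called lower among its 4 tested genes. Of 9 leukocyte and microglia markers AIF1, CX3CR1, P2RY12 and CD3E had 0 counts. Their sum of 494 to 508 CPM in received and 370 to 410 CPM in not received came almost all from CD68, a lysosomal protein, which was called higher. The part of these markers in the results below was not tested.

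The tested genes of the interferon pathway differed by small amounts and in both directions, 24 with a positive and 20 with a negative log2 fold change. Of the 51 genes, 44 had enough counts for the edgeR quasi-likelihood test. At a Benjamini-Hochberg adjusted p under 0.05 over all 14100 genes tested, 3 were higher in received (IRF1, IRF3 and IFNAR1) and 7 were lower (SAMD9, SAMD9L, STAT2, OAS3, IFITM3, SP100 and JAK1). That is 6.82% higher, beside 9.21% of all genes tested, and 15.9% lower, beside 9.67%; in either direction 22.7% were called, beside 18.9%. The median log2 fold change, received over not received, was 0.01 over the 44 genes and -0.00 over all genes, and the median size of the change was 0.23 for the 44 and 0.17 for all. The 3 received libraries all lay above the 3 not-received libraries for 10 of the 44 genes and all below for 10, while 19.5% of all genes did the one and 19.5% the other. No gene of the 44 differed by 2-fold, and the fold changes ran from -0.74 to 0.94 on the log2 scale.

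How much the counts could have missed is given by the intervals. For the 34 genes tested but not called, the 95% interval of the fold change (of each gene alone) lay within 1.5-fold either way for 22 and within 2-fold for 26. The wider intervals belong to genes with few counts, such as MX1 (68 counts in received and 105 in not received, over 3 libraries each), whose interval holds changes of 1.5-fold in either direction.

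**Figure D1:**
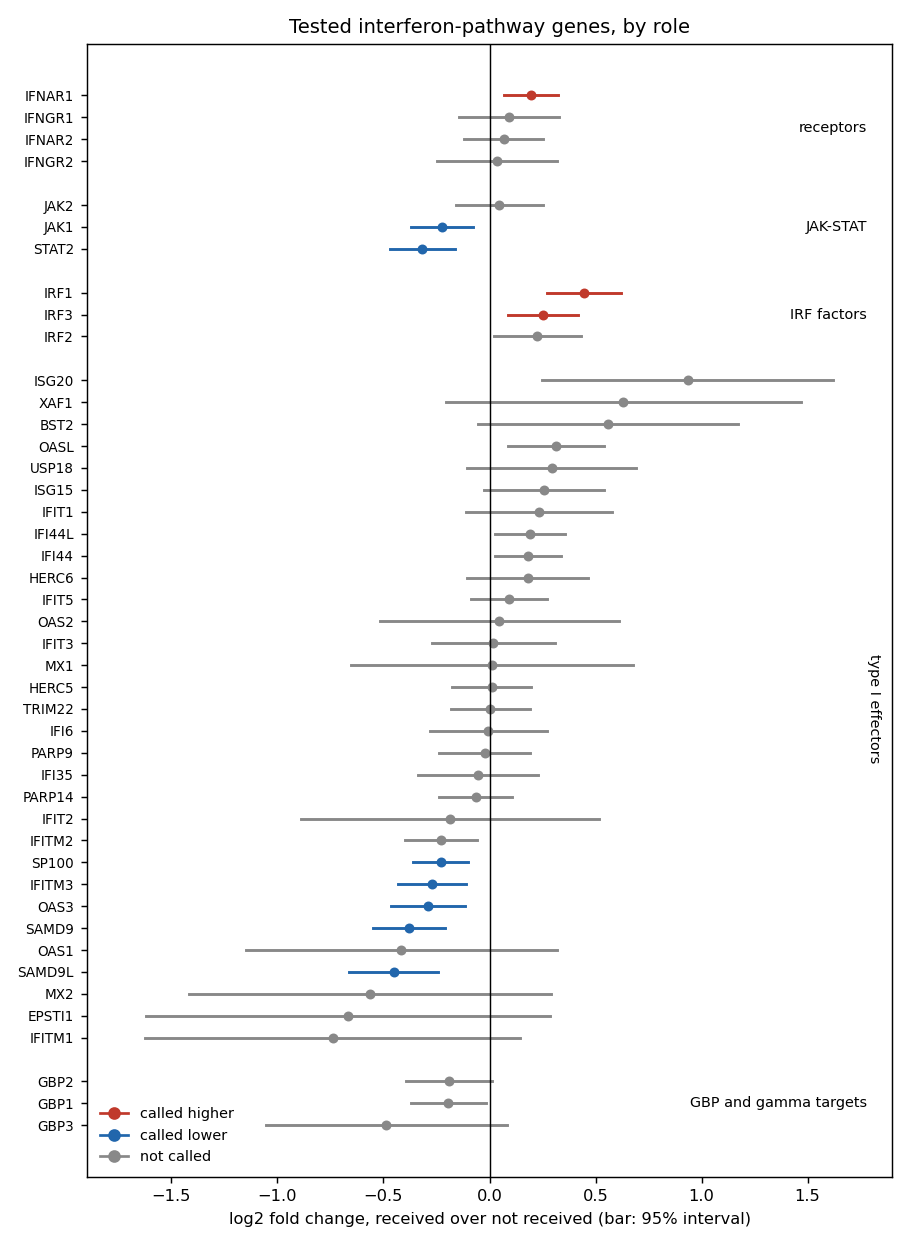
Log2 fold change, received over not received (horizontal axis), of the 44 tested genes (vertical axis, by role), with bars for the 95% interval of each gene; red marks genes called higher, blue called lower and grey not called. The 10 called genes lie between -0.45 and 0.45, and the low-count effectors at the ends of the type I block have the widest bars.

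The ligands come first in the pathway. All 10 interferon genes looked up (IFNA1, IFNA2, IFNB1, IFNE, IFNK, IFNW1, IFNG, IFNL1, IFNL2 and IFNL3) are listed at 0 counts in all 6 libraries. With 3 counts as the limit that 0 allows, a level of up to 0.167 CPM per library in received and 0.163 CPM in not received would have gone unseen. This limit covers counting error alone: 19.8% of the protein-coding genes in the files are at 0, some of them genes that most cells use, so a listed 0 is not read as absence. Interferon released by other cells of the co-culture was not measured.

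The receptors were present in both groups. IFNAR1, the type I receptor subunit that binds TYK2, had 95.6, 95 and 97.9 CPM in received and 83.5, 81.3 and 87.7 CPM in not received, with all 3 received libraries above the others. Its means were 96.2 ± 1.5 and 84.2 ± 3.25 CPM (SD, n = 3 each), a log2 fold change of 0.19 with SE 0.06, or 1.14-fold (edgeR, Benjamini-Hochberg adjusted p = 0.0364). IFNAR1 was the 1 receptor gene of 4 called higher (25%, beside 9.21% of all genes tested). The call was not held by every fit. Adjusted p (edgeR) was 0.106, 0.0995 and 0.126 without received replicates 1, 2 and 3. It was 0.0674 without not-received replicate 1 and 0.0511 with no low-count filter. IFNGR1, the ligand-binding subunit for interferon gamma, had 25.2, 31.4 and 28.7 CPM in received and 24.8, 24.4 and 31.0 CPM in not received. These libraries overlapped, and the log2 fold change of 0.09 had a 95% interval of -0.14 to 0.33 (edgeR, Benjamini-Hochberg adjusted p = 0.591). IFNAR2 and IFNGR2, the partner subunits, averaged 25.4 and 7.02 CPM in received and 24.3 and 6.84 CPM in not received and were not called (edgeR, Benjamini-Hochberg adjusted p = 0.628 and 0.88).

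The relay below the receptors was called lower in 2 of its 3 genes (66.7%, beside 9.67% of all genes tested). With so few genes, the class is not read as standing apart from the other genes. STAT2, the subunit through which ISGF3 activates transcription, had 68.4, 63.9 and 68.5 CPM in received and 83.9, 89.8 and 76.2 CPM in not received. Every received library was below every not-received one. The means were 67.0 ± 2.63 and 83.3 ± 6.85 CPM (SD, n = 3 each), 1.25-fold lower in received (log2 fold change -0.32, SE 0.07; edgeR, Benjamini-Hochberg adjusted p = 0.00823), and adjusted p was 0.0657 without received replicate 2. JAK1, the kinase shared by the type I and gamma receptors, had 143, 139 and 134 CPM in received and 151, 178 and 156 CPM in not received, again without overlap. It was 1.17-fold lower (log2 fold change -0.23, SE 0.07; edgeR, Benjamini-Hochberg adjusted p = 0.0343). Leaving out received replicates 1, 2 or 3 took its adjusted p to 0.0935, 0.123 and 0.154, leaving out not-received replicate 2 to 0.0577, scaling by library size alone to 0.0625 and limma-voom to 0.0508. In the RefSeq annotation JAK1 overlaps RAVER2, whose received libraries also all lay below. RAVER2 was not called (log2 fold change -0.24; edgeR, Benjamini-Hochberg adjusted p = 0.0855), and how reads in both genes were counted is not stated. JAK2, which serves the gamma receptor, averaged 16.9 CPM in received and 16.3 CPM in not received, with overlapping libraries and a 95% interval of -0.16 to 0.25 on the log2 scale.

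Further regulators of the relay gave 1 higher and 1 lower gene among 9 tested of 14. Each is 11.1%, beside 9.21% and 9.67% of all genes tested. SOCS1, a feedback inhibitor of JAK kinases that interferons induce, had 25.4, 23.3 and 26.6 CPM in received and 15.6, 16.6 and 14.1 CPM in not received. The groups were far apart, 1.62-fold higher in received (log2 fold change 0.69, SE 0.09; edgeR, Benjamini-Hochberg adjusted p = 0.000201). SOCS3, an inhibitor induced mainly by IL-6 family cytokines, had 77.0, 74.4 and 77.3 CPM in received and 91.7, 84.9 and 85.1 CPM in not received. It was 1.14-fold lower (log2 fold change -0.19, SE 0.06; edgeR, Benjamini-Hochberg adjusted p = 0.0433). TYK2, the partner kinase of IFNAR1, was not called (log2 fold change -0.18; edgeR, Benjamini-Hochberg adjusted p = 0.0716), although its received libraries all lay below.

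Of the 5 IRFs, 3 were tested and 2 were called higher (66.7%, beside 9.21% of all genes tested), again on few genes. IRF1, a transcriptional activator that interferon gamma and NF-kB induce, had 23.6, 23.9 and 22.6 CPM in received and 17.4, 16.6 and 17.6 CPM in not received. Each group was tight and the gap between them was wide relative to it. The means were 23.4 ± 0.683 and 17.2 ± 0.560 CPM (SD, n = 3 each), 1.36-fold higher in received (log2 fold change 0.45, SE 0.08; edgeR, Benjamini-Hochberg adjusted p = 0.0021). IRF1 was called higher under all 13 alternatives tried, with log2 fold changes of 0.42 to 0.48 and a largest adjusted p of 0.0187.

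IRF3, which is activated by phosphorylation downstream of nucleic acid sensors and drives interferon genes, had 90.8, 92.3 and 92.2 CPM in received and 85.7, 68.8 and 77.4 CPM in not received. All received libraries were above, and the not-received libraries were the more scattered. It was 1.19-fold higher (log2 fold change 0.25, SE 0.08; edgeR, Benjamini-Hochberg adjusted p = 0.0338). Adjusted p was 0.0976, 0.115 and 0.113 without received replicates 1, 2 and 3, and 0.0534 and 0.0665 without not-received replicates 2 and 3. In the RefSeq annotation IRF3 overlaps BCL2L12, which was also called higher (log2 fold change 0.22; edgeR, Benjamini-Hochberg adjusted p = 0.0418), and the rule for reads that fall in both is not stated in the sources read here. IRF2, which can repress IRF1 targets, had 31.2, 31.6 and 26.8 CPM in received and 22.7, 28.3 and 25.3 CPM in not received. Its libraries overlapped and it was not called (log2 fold change 0.22; edgeR, Benjamini-Hochberg adjusted p = 0.117), but it passed without not-received replicate 2 (0.0209). IRF7, the amplifier of type I interferon genes, had 16 counts in received and 34 in not received and was under the filter. Of its 12 neighbours 1, HRAS, is at 0, and LOC124902805 is not in the count files.

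**Figure D2:**
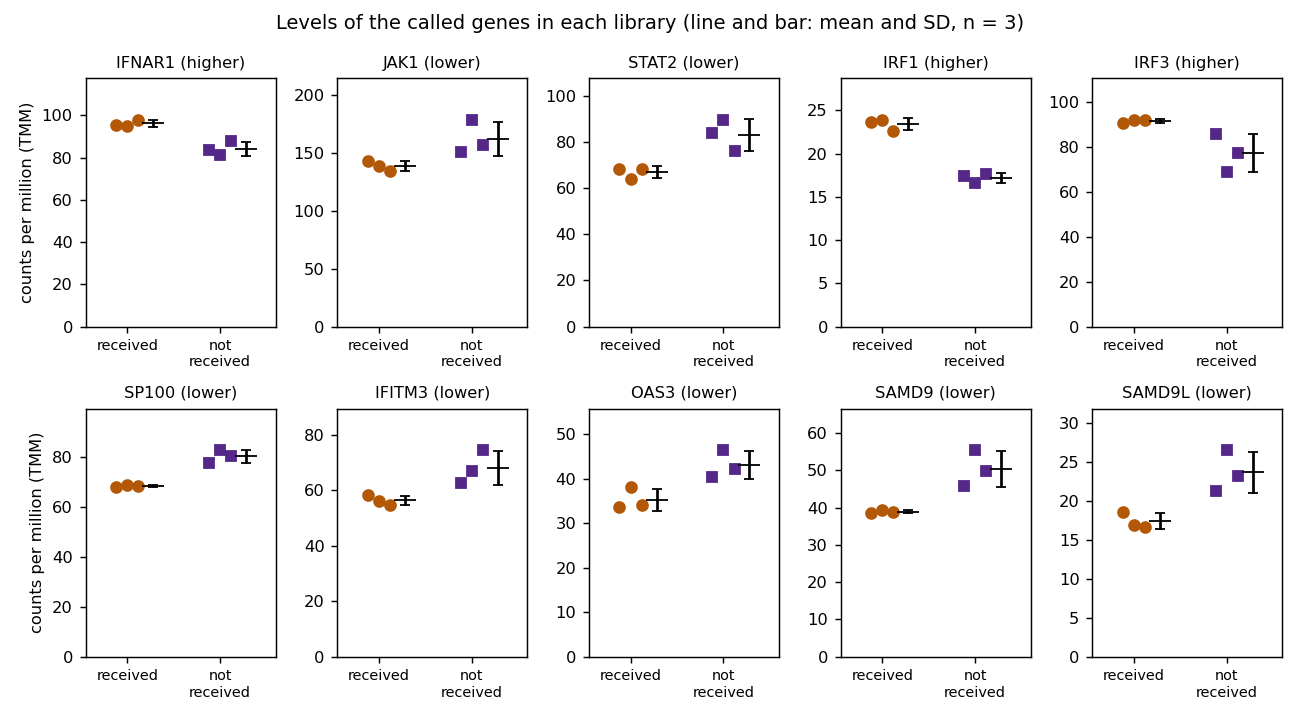
TMM-scaled CPM (vertical axis, from 0) of the 10 called genes in each library: circles for received, squares for not received, and beside each a line and bar for the mean and SD of 3 libraries. In every panel the groups do not overlap; STAT2 averages 67.0 CPM in received and 83.3 CPM in not received, IRF1 23.4 and 17.2 CPM.

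IRF9, the DNA-binding subunit of ISGF3, is listed at 0 counts in all 6 libraries, and so are most genes around it. Of its 12 nearest protein-coding neighbours, 6 on each side in RefSeq order, 10 are at 0 as well, among them DCAF11, PSME1, RNF31, IPO4 and CHMP4A. PSME2 has 71 counts in received and 81 in not received. From RNF31 to NYNRIN, 23 genes in a row average under 25 counts per library, 18 of them at 0, and the gene after that run, KHNYN, has 10413 counts over the 6 libraries. Such neighbourhoods are uncommon in the files: 643 of 19276 protein-coding genes (3.34%) have at least 10 of 12 neighbours at 0, and 19.8% of these genes are at 0 themselves. Several of the neighbours encode proteins that most cells use, such as the proteasome activator subunit PSME1, so the level of IRF9 is not read here as absence of its mRNA, and why the run is empty was not tested. RSAD2 (viperin, a radical-SAM antiviral enzyme), also at 0, has 2 of 12 neighbours at 0, and PSMB8, at 0 too, has 4 of 12. Each also lies in a run of genes that average under 25 counts per library. That of RSAD2 is 7 genes long (COLEC11 to RSAD2) and that of PSMB8 5 (PSMB8 to HLA-DMA), so neither 0 is read as absence.

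None of the type I effectors was called higher, beside 9.21% of all genes, and 16.1% of those tested were called lower, beside 9.67%. Of 34, 31 were tested with edgeR, with 0 higher, 5 lower and 26 not called, and a median log2 fold change of 0.00. Without received replicates 1, 2 and 3 the lower genes numbered 2, 3 and 2. At an unadjusted p under 0.05, 10 of the 31 passed (32.3%, beside 33.3% of all genes), 4 of them higher (12.9%, beside 16.6%). DESeq2 also called 0 higher, limma-voom called 1 (ISG20), and scaling by library size alone, which moves the median of all genes to 0.04, called 4 (ISG20, IFI44, IFI44L and OASL). Summed over the 34 genes, the level was 560 to 570 CPM in received and 575 to 619 CPM in not received. The upper end of the 95% interval lay under 1.5-fold for 25 of the 31 and under 2-fold for 28.

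In the ISG15 conjugation system none of 4 genes was called by edgeR or DESeq2. None passed at an unadjusted p under 0.05, beside 33.3% of all genes tested. ISG15, the ubiquitin-like protein that is attached to other proteins, had 9.26, 11.1 and 10.5 CPM in received and 9.18, 7.42 and 9.39 CPM in not received. The lowest received library lay within the range of not received. The means were 10.3 ± 0.942 and 8.67 ± 1.08 CPM (SD, n = 3 each), with a log2 fold change of 0.26 and a 95% interval of -0.02 to 0.54 (edgeR, Benjamini-Hochberg adjusted p = 0.185). USP18, the protease that removes ISG15 and also blocks signalling at IFNAR2, had 4.00, 6.06 and 4.67 CPM in received and 3.97, 4.01 and 4.03 CPM in not received. Received replicate 1 sat among the not-received libraries and the other 2 above them (log2 fold change 0.29, 95% interval -0.11 to 0.69; edgeR, Benjamini-Hochberg adjusted p = 0.289). HERC5, the ligase for ISG15, averaged 27.2 CPM in received and 27.0 CPM in not received, and HERC6, of the same family, 7.54 CPM in received and 6.65 CPM in not received.

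Among 13 proteins that bind viral RNA or act on nucleotides, 11 were tested. Of these 1, OAS3, was lower (9.09%, beside 9.67% of all genes tested). OAS3 makes the 2-5A messenger that switches on RNase L. It had 33.6, 38.1 and 34.1 CPM in received and 40.3, 46.4 and 42.2 CPM in not received, with no overlap. The means were 35.3 ± 2.48 and 43.0 ± 3.15 CPM (SD, n = 3 each), 1.22-fold lower in received (log2 fold change -0.29, SE 0.08; edgeR, Benjamini-Hochberg adjusted p = 0.0254), but adjusted p was 0.132 without received replicate 1 and 0.12 without received replicate 3. The paralogs of OAS3 did not share a call. OAS1 had 0.791, 0.590 and 0.834 CPM in received and 0.652, 1.26 and 0.959 CPM in not received, on 43 and 89 counts. Its libraries overlapped (log2 fold change -0.42, 95% interval -1.15 to 0.32; edgeR, Benjamini-Hochberg adjusted p = 0.421). OAS2 averaged 1.84 CPM in received and 1.79 CPM in not received.

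OASL, a relative of the OAS enzymes that enhances RIG-I signalling, had 21.5, 20.0 and 18.7 CPM in received and 15.4, 14.7 and 18.7 CPM in not received. All received libraries lay above, the nearest pair by little, and the gene fell just outside the threshold (log2 fold change 0.31, 95% interval 0.09 to 0.54; edgeR, Benjamini-Hochberg adjusted p = 0.0539). It was called without not-received replicate 3 (adjusted p = 0.0149), with no low-count filter (0.0203), with at least 1 CPM in at least 3 libraries (0.0467) and by library size alone (0.0333). ISG20, an RNA exonuclease, had 1.40, 1.45 and 1.28 CPM in received and 0.815, 0.507 and 0.911 CPM in not received, on 80 and 57 counts. Its groups were apart and its fold, 1.91, was the highest of the 44 genes tested (log2 fold change 0.94, SE 0.32; edgeR, Benjamini-Hochberg adjusted p = 0.056). It was called by limma-voom (0.0412), with at least 1 CPM in at least 3 libraries (0.0379) and by library size alone (0.0472). OASL and ISG20 were singled out after their values were seen.

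Of the IFIT proteins, IFIT1 binds viral RNA that lacks the host's cap methylation. IFIT1 had 6.23, 6.22 and 6.34 CPM in received and 4.29, 6.08 and 5.46 CPM in not received. The received libraries were all above, the nearest pair by little, and the log2 fold change of 0.23 had a 95% interval of -0.11 to 0.58 (edgeR, Benjamini-Hochberg adjusted p = 0.328). IFIT2, IFIT3 and IFIT5 averaged 1.01, 7.18 and 25.4 CPM in received and 1.16, 7.12 and 23.9 CPM in not received, and none was called. In RefSeq the 4 IFIT genes lie within the span of LIPA, a lysosomal lipase gene that was itself called higher (log2 fold change 0.25; edgeR, Benjamini-Hochberg adjusted p = 0.0129). The sources do not say if the counting used strand, so reads of LIPA in the IFIT counts cannot be told apart. MX1, a dynamin-like GTPase that traps viral nucleocapsids, had 1.12, 1.18 and 1.22 CPM in received and 0.760, 1.48 and 1.15 CPM in not received. The not-received libraries lay on both sides of received, and the 95% interval of the log2 fold change, 0.01, was -0.65 to 0.68 (edgeR, Benjamini-Hochberg adjusted p = 0.984). MX2 averaged 0.636 CPM in received and 0.903 CPM in not received. CMPK2, a mitochondrial nucleotide kinase next to RSAD2, had 2 counts in received and 7 in not received, with 3 of its 12 neighbours at 0.

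Of the 4 membrane proteins that hold virus at the cell surface or in endosomes, 1 was lower (25%, beside 9.67% of all genes tested). IFITM3, which blocks fusion in endosomes, had 58.1, 55.9 and 54.8 CPM in received and 62.5, 67.0 and 74.4 CPM in not received. The groups did not overlap, and the means of 56.3 ± 1.70 and 68.0 ± 6.02 CPM (SD, n = 3 each) gave a 1.21-fold lower level in received (log2 fold change -0.27, SE 0.07; edgeR, Benjamini-Hochberg adjusted p = 0.0213). Adjusted p was 0.0682, 0.0976 and 0.107 without received replicates 1, 2 and 3, and 0.0678 without not-received replicate 3. IFITM2, nearly identical in sequence, had 29.6, 28.3 and 27.7 CPM in received and 31.9, 32.1 and 36.3 CPM in not received. It lay below in every received library but was not called (log2 fold change -0.23; edgeR, Benjamini-Hochberg adjusted p = 0.0602), except without not-received replicate 2 (0.031). The authors' counting could have split or dropped reads of this pair, so the level of each is uncertain. IFITM1 averaged 0.508 CPM in received and 0.833 CPM in not received, and BST2 (tetherin), which tethers budding virus, 1.68 CPM in received and 1.15 CPM in not received. Neither was called.

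The clearest decreases were in SAMD9 and SAMD9L, neighbouring paralogs on chromosome 7 that restrict poxviruses and translation and hold back cell growth. SAMD9 had 38.5, 39.3 and 38.7 CPM in received and 45.7, 55.5 and 49.9 CPM in not received. The received libraries lay within 1 CPM of each other and all below. The means were 38.8 ± 0.382 and 50.4 ± 4.87 CPM (SD, n = 3 each), 1.30-fold lower in received (log2 fold change -0.38, SE 0.08; edgeR, Benjamini-Hochberg adjusted p = 0.00526). SAMD9L had 18.6, 16.9 and 16.6 CPM in received and 21.3, 26.5 and 23.2 CPM in not received, also without overlap. It was 1.37-fold lower (log2 fold change -0.45, SE 0.10; edgeR, Benjamini-Hochberg adjusted p = 0.00621). Both were called lower under all 13 alternatives, SAMD9 with log2 fold changes of -0.44 to -0.30 and a largest adjusted p of 0.0391, SAMD9L with -0.52 to -0.35 and 0.0445. Reads that match both paralogs could be counted for either.

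SP100, a scaffold of nuclear PML bodies, had 68.2, 69.0 and 68.3 CPM in received and 77.6, 82.9 and 80.5 CPM in not received. Its groups were apart, 1.17-fold lower in received (log2 fold change -0.23, SE 0.06; edgeR, Benjamini-Hochberg adjusted p = 0.0182). Without received replicates 1, 2 and 3 its adjusted p was 0.0905, 0.078 and 0.081. The other 10 of this mixed group of 13 held 9 tested genes and none was called. IFI44 and IFI44L, interferon-induced proteins related in sequence, averaged 58.6 and 36.3 CPM in received and 51.6 and 31.8 CPM in not received. All of their received libraries were above (edgeR, Benjamini-Hochberg adjusted p = 0.0957 and 0.096), and both were called when scaled by library size alone (0.0449 and 0.0485). IFI6, PARP9, PARP14, TRIM22 and IFI35 averaged 26.5, 17.6, 26.1, 21.0 and 15.0 CPM in received and 26.9, 17.8, 27.2, 20.9 and 15.8 CPM in not received. XAF1 and EPSTI1 were near 1 CPM or under it in both groups. IFI27, often strongly induced in cells under type I interferon, had 8 counts in received and 5 in not received. Of its 12 neighbours 7 are at 0 and DDX24, a helicase gene that most cells use, has 0 counts in received and 1 in not received, so a low level of IFI27 is not read from these counts.

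The GBP and proteasome genes were not called in either direction by edgeR or DESeq2. Of the 3 tested, 1 passed at an unadjusted p under 0.05, beside 33.3% of all genes tested. GBP1, a GTPase that coats pathogen membranes, had 19.3, 21.1 and 19.0 CPM in received and 22.0, 23.3 and 22.5 CPM in not received. Its received libraries all lay below (log2 fold change -0.19, 95% interval -0.37 to -0.02; edgeR, Benjamini-Hochberg adjusted p = 0.115). GBP2 had 16.9, 17.1 and 19.3 CPM in received and 18.6, 20.3 and 21.9 CPM in not received, with overlap (log2 fold change -0.19, 95% interval -0.39 to 0.01; edgeR, Benjamini-Hochberg adjusted p = 0.172). GBP3 averaged 1.48 CPM in received and 2.10 CPM in not received. PSMB9, an immunoproteasome subunit, was under the filter with 34 counts in received and 25 in not received, with 6 of its 12 neighbours at 0, and its scaled levels of 0.698, 0.536 and 0.5 CPM in received all stood above the 0.326, 0.286 and 0.288 CPM of not received.

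Of 32 tested genes among 35 further type I targets, 4 were higher (12.5%, beside 9.21% of all genes) and 1 lower (3.12%, beside 9.67%), with a median log2 fold change of 0.04 (-0.00 over all genes). BATF2, a bZIP factor that works with IRF1, had 2.88, 3.43 and 3.95 CPM in received and 1.47, 1.5 and 1.58 CPM in not received. It was 2.25-fold higher, with no overlap (log2 fold change 1.17, SE 0.23; edgeR, Benjamini-Hochberg adjusted p = 0.00318). NMI, SAMHD1 and LAP3, an interactor of STATs, a dNTP hydrolase and an aminopeptidase, were higher by log2 fold changes of 0.49, 0.26 and 0.25 (edgeR, Benjamini-Hochberg adjusted p = 0.0159, 0.0319 and 0.0179). DDX60L, a helicase-like antiviral protein, was lower (14.8 ± 0.482 CPM in received and 19.9 ± 1.5 CPM in not received, SD, n = 3 each; log2 fold change -0.43; edgeR, Benjamini-Hochberg adjusted p = 0.00583).

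Of 16 tested genes among 20 further gamma targets, 2 were higher (12.5%) and 1 lower (6.25%), with a median of 0.06. With 1 to 4 genes behind each share, neither list is read as standing apart from the other genes. FAS, the death receptor, had 34.5, 33.6 and 31.5 CPM in received and 22.4, 21.8 and 22.7 CPM in not received. It was 1.49-fold higher (log2 fold change 0.58, SE 0.07; edgeR, Benjamini-Hochberg adjusted p = 0.000172). APOL6, a lipid-binding protein linked to cell death, was higher (log2 fold change 0.26; edgeR, Benjamini-Hochberg adjusted p = 0.0464), and SECTM1, a secreted and transmembrane ligand of CD7, was lower at 1.06 CPM in received and 2.20 CPM in not received (log2 fold change -1.04, SE 0.27; edgeR, Benjamini-Hochberg adjusted p = 0.0171). CXCL9, CXCL10 and CXCL11, the chemokines by which interferon gamma draws T cells, summed to at most 0.0536 CPM in received and 0.132 CPM in not received and were not tested. FAS and SOCS1 also have inducers other than interferon.

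The promoter letters were set beside the calls. RefSeq's promoter table held 39 of the 51 genes. In the 250 bases upstream, 21 of the 39 (53.8%) matched the ISRE core on either strand, beside 1014 of all 27305 genes with an entry (3.71%). Of the type I effectors, 20 of 27 did. A gene with several annotated starts was counted once, as a match if any of its windows matched. The GAS core was matched by 12 of the 39 (30.8%), beside 2208 of 27305 (8.09%). The 2 elements share letters in part, so 1 stretch can match both. Of the genes called lower, 3 of 7 matched the ISRE core (IFITM3, OAS3 and SAMD9, printed above), and of those called higher 0 of 2 (IRF1 and IFNAR1), while IRF1 carried the GAS match. Of 24 tested genes with an entry that were not called, 16 matched the ISRE core. A match describes these letters alone and is not evidence of binding, and a window with none says nothing of the factor.

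**Figure D3:**
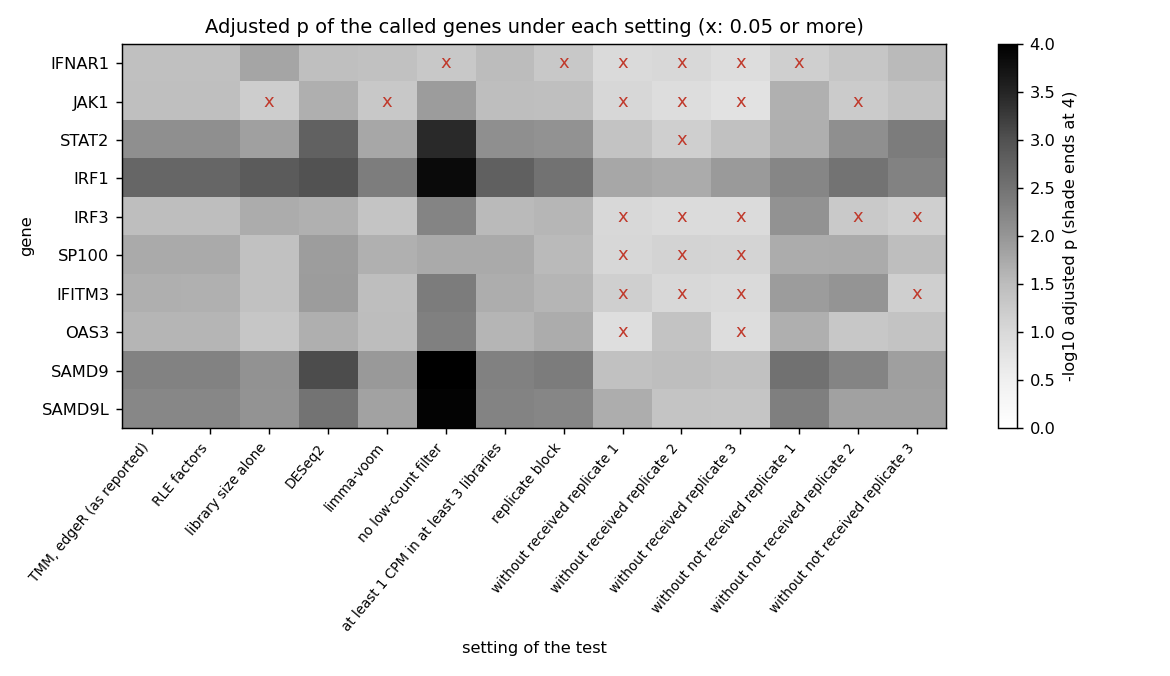
Shade gives -log10 of the adjusted p of the 10 called genes (vertical axis) under the reported test and 13 alternative settings (horizontal axis); an x marks an adjusted p of 0.05 or more. IRF1, SAMD9 and SAMD9L have no x, and the crosses gather where 1 received library is left out.

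Fewer genes passed when a received library was missing. With any 1 of the received libraries left out, 1 gene stayed higher (IRF1) and 3 lower; all genes called then made up 9.36%, 8.89% and 9.64% of those tested, beside 18.9% with all 6 libraries. Without not-received replicate 2, the library that stood apart, 3 genes were higher and 7 lower, with IFITM2 and IRF2 in place of JAK1 and IRF3, and 20.5% of all genes tested were called.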

How the data were processed

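RNA was extracted with TRIzol and captured on poly-T beads, and paired-end reads of 150 bases were taken on an Illumina NovaSeq, per the labels' protocols. The deposited values are raw whole-number counts per gene symbol, 1 file per library, with no normalization by the authors found in the values. DESeq and R 3.6.1 are named in the submitters' processing notes. Not given in the sources used here: aligner, counting program, strand setting, genome build and annotation. The 28833 genes with a count were filtered with filterByExpr (14100 tested), scaled with TMM factors (0.981 to 1.02) and tested with glmQLFit (robust) and glmQLFTest of edgeR 4.0.16 in R 4.3.3, group as the sole term, on all 6 libraries. P-values were adjusted by Benjamini-Hochberg over the 14100 genes, with a call under 0.05. CPM are counts over TMM-scaled library size, and an SE is the size of the log2 fold change over the root of F. Tested on simulated data, the steps gave a share of false calls above the nominal threshold, and missed more of the smaller changes than of the larger, so calls near 0.05 are uncertain. DESeq2 1.42.0, limma-voom 3.58.1, other scalings and filters, a replicate block and leaving out each library were the alternatives.

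The genes and lists were chosen with earlier results of these data known, so no list was tested. Values per library are given by a rule: up to 6 called genes of each class or effector group with the largest change and at least 1 CPM in a group, the 2 of smallest p where none was called, and a fixed set of 11 genes. From each further list up to 4 called genes are named by size of change. ISG20, OASL, IFI44, IFI44L, IFITM2, IRF2, PSMB9, LAP3 and TYK2 were added after their values were seen. Chi-square per gene, 3.23 or more between libraries of a group, showed no pair within sampling noise. Promoters, neighbour order and overlaps come from RefSeq tables of GRCh38.p14, matched by symbol, whose build may not be the authors'.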

Additional observations from a re-analysis of the deposited data

How the results depend on the processing

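The 13 alternatives left the median log2 fold change of the 44 genes between 0.00468 and 0.0492. Genes called higher numbered 3 as reported, but 7 with scaling by library size alone, 5 with at least 1 CPM in at least 3 libraries and 4 with limma-voom. Genes called lower numbered 7 as reported, and 6 by library size alone and by limma-voom. Leaving out 1 library at a time gave 1 to 3 higher and 3 to 7 lower. MX1, not called in any fit, had a log2 fold change of 0.01 as reported, of -0.00451 with limma-voom and of -0.01 without received replicate 3, and leaving out 1 library at a time gave -0.18 to 0.28. Library size alone also moved the split over all genes to 1683 higher and 1110 lower, against 1298 and 1364. Leaving out a library of either group leaves fewer samples. Without not-received replicates 1, 2 and 3, 15.9%, 20.5% and 18.3% of all genes tested were called. The cause of the changes under the alternatives was not tested. The replicate numbers did not pair the libraries (correlations of same-numbered libraries of -0.17, -0.03 and 0.02), and with the replicate block 2 genes were called higher, without IFNAR1 (adjusted p = 0.0516), and 7 lower. Of 311 fold changes of single genes under the alternatives, 270 kept their direction and their side of the threshold, many of them from uncalled genes. Among the rest, 27 lost a call, all from the 10 called genes, 11 gained one and 3 changed direction. The calls of IRF3, JAK1 and IFNAR1 were kept under 8, 7 and 7 of the 13 alternatives.

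Limits: 7 of the 51 genes had too few counts to test, called genes of the whole table had a median change of 0.38 on the log2 scale (0.17 over all genes tested), RNA levels say nothing of STAT phosphorylation or IRF location, and receipt is known here from the titles alone.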
